A study of Mus musculus with 9 samples.

Results

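Collagens are secreted or membrane proteins that form the fibres, networks and anchoring structures around cells, and their RNA was followed here through the steps by which mouse mammary epithelial cells are isolated. The collagen genes were taken as every gene whose symbol reads Col, a number, a and a number, such as Col1a1 or Col17a1, which gave 44 of the 19938 genes named on the array. They were the same number as the 44 collagen symbols in the RefSeq gene table, and no measured value entered the choice. Each gene was read from 1 row of the deposited table, and for Col6a5 and Col6a6, which had 2 rows each, the row with the higher mean stood for the gene.

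The 9 Affymetrix arrays covered 3 groups, 3 arrays to each, and read RNA along whole transcripts. All 3 groups came from the mammary gland of wild-type female mice of the C3H strain aged 8 to 9 weeks, and in all of them the cells had been freed from the fat with collagenase. Untrypsinized cells were taken at that point, trypsinized cells after a further digestion with trypsin, and mock sorted cells after trypsin and a mock run through a fluorescence-activated cell sorter. The study compared trypsinized with untrypsinized cells and mock sorted with trypsinized cells; mock sorted against untrypsinized cells, which sums both steps, was added here. In the labels a group's 3 arrays are biological replicates, but no animals and no pooling are named, so p-values reflect only how far these samples differ, which may partly be technical.

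A collagen molecule is a triple helix of 3 chains. The chains are hydroxylated and folded in the endoplasmic reticulum, and fibrillar procollagens are trimmed outside the cell, assembled into fibrils and crosslinked by lysyl oxidases. In the mammary gland, fibroblasts are the main makers of the interstitial fibrillar collagens, while the basement membrane that surrounds the epithelium and the vessels is built on a network of type IV collagen. Collagen XVII is a membrane protein of basal epithelial cells that sits in hemidesmosomes, and collagen VII forms the anchoring fibrils below them. Collagenase cuts the protein in the tissue, whereas the arrays measured RNA.

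Intensities were analysed as log2(intensity + 1), and each value below is a level or a difference on that scale. The arrays' median intensities ran from 345 to 408, and precision is limited by having 3 arrays to a group. A gene is said to have risen or fallen where the adjusted p of the limma fit (Benjamini-Hochberg, 19938 genes) was 0.05 or below, and it is said to be called where the change was also at least 1.5-fold, the size used by the study. A gene is said to be dim in a group whose mean lay under 8.14, the 95th percentile of the means of 1194 olfactory and vomeronasal receptor genes, and 40 of the 44 collagen genes were above that level in at least 1 group. Keratins of mammary epithelium were bright in all 3 groups, with means of Krt8, Krt18, Krt5 and Krt14 between 12.75 and 13.93. Markers of endothelial, mural, fibroblast and nerve-associated cells were also above the dim level in untrypsinized cells, apart from Higd1b, a pericyte gene, and their values stand beside the collagen results below. Levels of different genes are not ranked, because probes differ in brightness.

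RefSeq start regions are shown for members whose changes the results turn on. They are those of Col1a2, Col3a1, Col15a1 and Col18a1, which were lower in mock sorted cells, and of Col7a1 and Col17a1, the epithelial members that were not. Each sequence is the 150 bases before an annotated transcript start, 5′ to 3′ on the gene's own strand, from RefSeq on GRCm38.p6. The capitals mark 3 short motifs on either strand, whose matches did not overlap in the windows shown: CCAAT, which reads ATTGG on the opposite strand, then TATAAA, which reads TTTATA there, and finally GGGCGG, which reads CCGCCC there. The table held 38 windows for 35 of the 44 collagen genes.
Col1a2: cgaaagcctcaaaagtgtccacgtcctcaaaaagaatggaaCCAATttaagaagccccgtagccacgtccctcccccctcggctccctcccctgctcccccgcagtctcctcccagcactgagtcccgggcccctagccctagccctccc
Col3a1: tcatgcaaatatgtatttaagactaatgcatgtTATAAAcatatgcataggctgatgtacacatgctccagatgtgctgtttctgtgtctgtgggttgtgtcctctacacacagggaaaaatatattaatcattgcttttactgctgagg
Col15a1: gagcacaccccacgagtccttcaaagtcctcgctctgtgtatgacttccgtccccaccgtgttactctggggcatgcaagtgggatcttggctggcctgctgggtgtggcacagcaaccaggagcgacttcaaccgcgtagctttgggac
Col18a1, first start: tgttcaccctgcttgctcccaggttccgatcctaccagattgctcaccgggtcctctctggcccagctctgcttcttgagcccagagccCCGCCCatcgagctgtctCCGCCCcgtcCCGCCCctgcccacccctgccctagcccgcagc
Col18a1, second start: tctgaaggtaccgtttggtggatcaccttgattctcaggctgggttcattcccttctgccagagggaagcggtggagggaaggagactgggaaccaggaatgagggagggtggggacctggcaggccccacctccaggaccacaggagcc
Col7a1: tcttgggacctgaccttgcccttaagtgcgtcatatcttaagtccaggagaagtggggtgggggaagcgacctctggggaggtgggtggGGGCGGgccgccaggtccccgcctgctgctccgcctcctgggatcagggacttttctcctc
Col17a1: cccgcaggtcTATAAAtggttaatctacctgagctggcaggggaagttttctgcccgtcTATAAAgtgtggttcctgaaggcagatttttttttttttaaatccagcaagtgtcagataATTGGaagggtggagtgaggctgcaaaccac

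These windows lie at chr6:4505468-4505617 (plus strand), chr1:45311388-45311537 (plus), chr4:47207862-47208011 (plus), chr10:77166531-77166680 and chr10:77113706-77113855 (minus), chr9:108953436-108953585 (plus) and chr19:47692043-47692192 (minus). The Col1a2 window held a CCAAT that began 109 bases before the start, and the Col3a1 window a TATAAA 117 bases before it. The window of the first Col18a1 start held GGGCGG on the opposite strand 3 times, at 61, 43 and 33 bases, and had a GC content of 68%, whereas that of Col3a1 had 37.3%. The Col7a1 window held GGGCGG at 61 bases, and the Col17a1 window held ATTGG at 31 bases and TATAAA at 140 and 91 bases. None of the 3 motifs was found in the windows of Col15a1 or of the second Col18a1 start. Over all 32851 windows of 150 bases in the table, 24.5% held CCAAT, 7.6% TATAAA and 28.6% GGGCGG, and of the 38 collagen windows 8, 4 and 19 did. A match is a run of letters and not a measured site, so members that fell and members that did not are set side by side here without a reading.

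After both steps together, mock sorted cells had less RNA of several interstitial and basement membrane collagens than untrypsinized cells. Col18a1 was 1.61-fold lower (log2 difference -0.69, SE 0.04) and Col5a2 1.54-fold lower (-0.62, SE 0.09), and these were the 2 collagen genes called lower of 44, against 3.4% of all genes. No collagen gene was called higher, against 1.08% of all genes; with no minimum fold 2 were higher. With no minimum fold, 14 of 44 fell (18% of all genes) and 2 rose (21%). The 14 were Col1a1, Col1a2, Col3a1, Col5a1 and Col5a2 among the fibrillar collagens, Col6a1, Col6a2 and Col6a3 of the microfibrils, Col4a1, Col4a2, Col15a1 and Col18a1 of basement membranes, and Col8a1 and Col14a1. The 2 that rose were Col4a3 and Col9a2. In these bulk samples, fewer cells of a type and less RNA per cell cannot be told apart. Over all 44 collagen genes the median difference was 0.03, against 0.05 over all genes; it was -0.09 after quantile normalization (all genes -0.04) and -0.12 with the arrays set to one median (all genes -0.09).

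With trypsin, the share of collagen genes that fell was near that of all genes in the main fit, and it differed among the alternatives given below. Col1a2, Col3a1, Col5a2, Col8a1 and Col18a1 fell by 0.19 to 0.42 between untrypsinized and trypsinized cells, and Col4a6 and Col7a1 rose by 0.18 and 0.16. None of these changes reached 1.5-fold, so 0 of 44 collagen genes were called lower and 0 higher, against 0.933% and 0.532% of all genes; by adjusted p alone 5 fell, against 11.5% of all genes, and 2 rose, against 13.9%. The 3 arrays of trypsinized cells lay below the 3 untrypsinized arrays for 8 collagen genes (19.4% of all genes) and above them for 10 (25%). The 10 included Col4a3, Col4a4, Col4a5 and Col4a6, the 4 type IV chains other than those of the main network. Of these 4 only Col4a6 passed, and with a common median its difference was 0.04. Col4a3 and Col4a4 were dim in untrypsinized cells.

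After the mock sort that followed, 3 of the 8 basement membrane collagens were lower. Col18a1, Col4a2 and Col4a1 fell by 0.38, 0.34 and 0.25 between trypsinized and mock sorted cells, and no collagen gene rose. Called genes again numbered 0 in both directions, against 1.17% lower and 0.0251% higher of all genes; by adjusted p alone the counts were 3 (4.2%) and 0 (0.466%). With the replicate number as a block over the 9 arrays, 5 fell (3.89% of all genes), the same 3 and Col6a2 and Col15a1. With that block in the 6 arrays compared, 3 fell (3.53%). The mock sorted arrays lay below the trypsinized arrays for 13 collagen genes (14.3% of all genes) and above them for 1, Col8a1 (9.74%). The 13 included Col1a2, Col3a1, Col5a1, Col5a2, Col6a1, Col6a2, Col6a3 and the epithelial Col17a1. In mock sorted against untrypsinized cells 14 lay below and 4 above without overlap, against 23.4% and 28.7% of all genes. The moderated F test over the 3 groups passed for 12 of 44, against 33.2% of all genes.

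**Figure D1:**
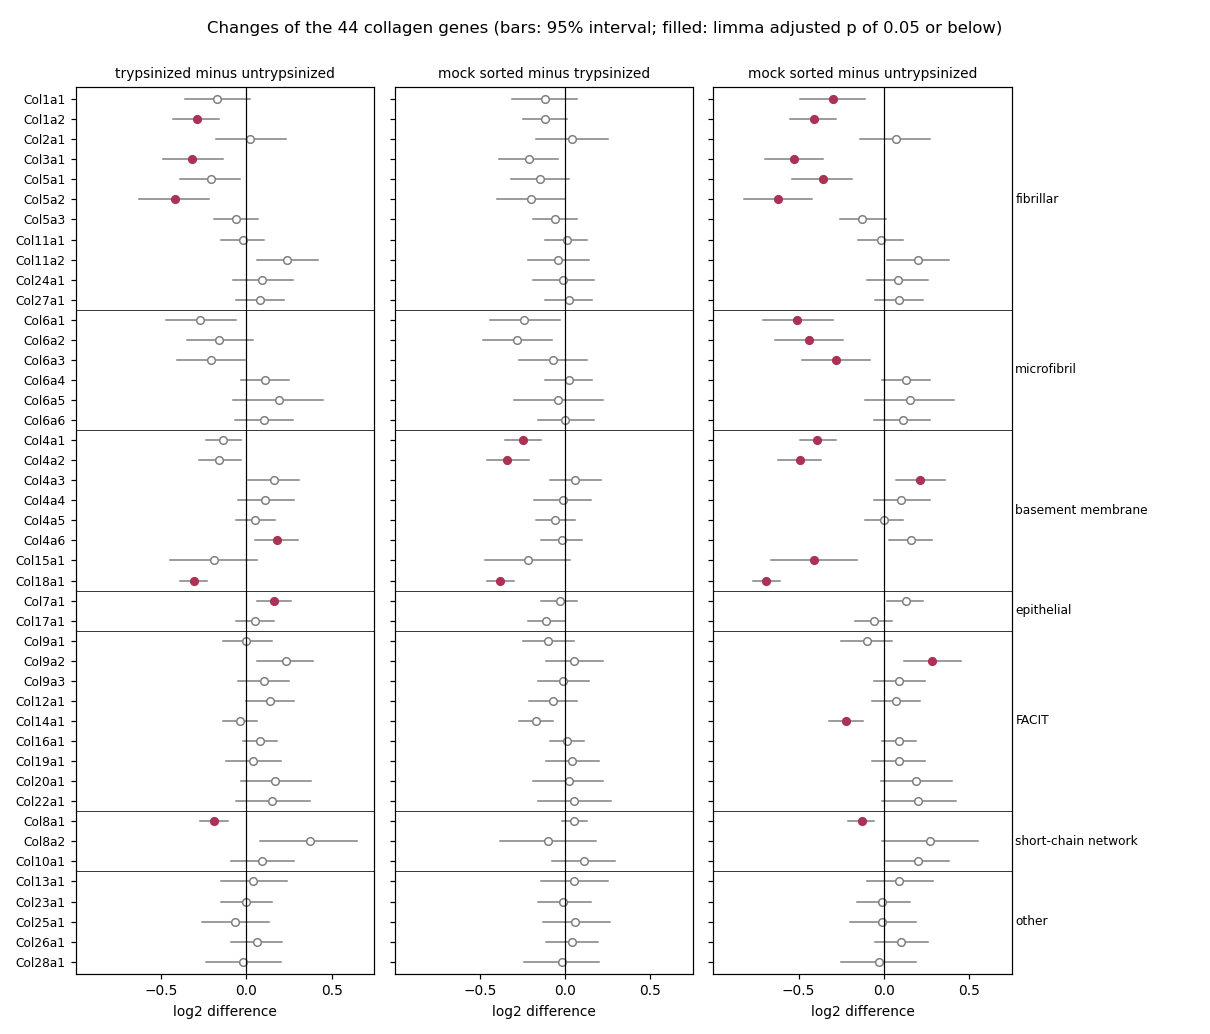
Log2 difference of each of the 44 collagen genes in the 3 comparisons (x axis, log2 units; rows grouped by collagen class), with 95% intervals from the limma fit over 9 arrays; filled points had an adjusted p of 0.05 or below. In mock sorted against untrypsinized cells 14 points are filled on the lower side and 2 on the higher side, and the epithelial members Col7a1 and Col17a1 lie at 0.13 and -0.06.

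These counts differed with brightness. Of the 20 collagen genes whose mean was at or above that of the median gene, 13 fell and 1 rose in mock sorted against untrypsinized cells, with a median difference of -0.29; over the 9969 genes as bright, 26.4% fell and 20.6% rose, with a median of -0.01. Of the 24 dimmer collagen genes, 1 fell and 1 rose, with a median of 0.09; over the dimmer genes 9.59% fell and 21.4% rose, with a median of 0.12. The scale between arrays also matters. When every array was brought to the same median (a common median below), the median of all genes moved from 0.04 to -0.09 in trypsinized against untrypsinized cells and from 0.05 to -0.09 in mock sorted against untrypsinized cells, and hardly in mock sorted against trypsinized cells (0 and -0.01). On that scale 14 and 17 collagen genes fell in the first and the last comparison, and none rose, while 28.4% and 34.1% of all genes fell and 3.74% and 6.18% rose. Col1a1, Col4a1, Col4a2, Col5a1, Col6a1, Col6a2, Col6a3, Col14a1 and Col15a1 were the genes it added to those that fell with trypsin. Over all genes, 677 were called lower and 215 higher in mock sorted against untrypsinized cells, 861 and 116 after quantile normalization and 1028 and 92 with a common median. The same counts with trypsin were 186 and 106, then 279 and 57, then 376 and 55.

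The fibrillar collagens were the largest class, with 11 members. Collagen I, the main fibre of loose connective tissue, is a trimer of Col1a1 and Col1a2 chains. Col1a2 was at 12.08, 11.95 and 12.13 in the untrypsinized arrays, at 11.84, 11.69 and 11.77 in the trypsinized arrays and at 11.65, 11.60 and 11.68 in the mock sorted arrays. No value of one group overlapped another: Col1a2 fell by 0.29 (SE 0.06, adjusted p = 0.0101) with trypsin and by 0.41 (SE 0.06, adjusted p = 0.00109) over both steps, and the mock sort itself gave -0.12 (SE 0.06), which did not pass. Col1a1 was at 11.98, 11.73 and 12.00, then at 11.84, 11.62 and 11.73, then at 11.63, 11.56 and 11.63. Its trypsinized values overlapped both other groups and its changes of -0.17 and -0.12 in the single steps did not pass, whereas the difference of -0.30 (SE 0.08) over both steps did (adjusted p = 0.0234). With a common median its change with trypsin was -0.31 and passed.

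Col3a1, the chain of the thin fibres that accompany collagen I, was at 11.52, 11.42 and 11.62 in the untrypsinized arrays, at 11.30, 11.10 and 11.21 in the trypsinized arrays and at 11.02, 10.87 and 11.08 in the mock sorted arrays. The 3 groups stepped down without overlap. The fall was 0.32 (SE 0.08, adjusted p = 0.019) with trypsin and 0.53 (SE 0.08, adjusted p = 0.00111) over both steps. Collagen V is a minor chain set that regulates the diameter of collagen I fibrils. Col5a2 was at 9.43, 9.12 and 9.44, then at 8.98, 8.84 and 8.89, then at 8.77, 8.68 and 8.67. It fell by 0.42 (SE 0.09, adjusted p = 0.011) with trypsin and by 0.62 (SE 0.09, adjusted p = 0.001) over both steps, and its 3 groups did not overlap either. Col5a1 was at 9.78, 9.61 and 9.89, then at 9.59, 9.44 and 9.60, then at 9.43, 9.33 and 9.42, and passed over both steps at -0.36 (SE 0.08, adjusted p = 0.00649).

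The other 6 fibrillar genes, Col2a1, Col5a3, Col11a1, Col11a2, Col24a1 and Col27a1, passed in no comparison. Collagens II and XI are those of cartilage fibrils; over both steps Col2a1, Col11a1 and Col11a2 differed by 0.07, -0.02 and 0.20, and Col24a1 was dim in all 3 groups. The class median was -0.06 with trypsin, -0.06 with the mock sort and -0.13 over both, and it was negative under both other scalings tried. Some of these results did not hold in every alternative. The Col5a2 difference over both steps fell to -0.57, under 1.5-fold, without untrypsinized replicate 1 or 3 or with a pseudocount of 50, and to -0.58 with array weights. The trypsin step of Col3a1 no longer passed without untrypsinized replicate 1 or 3 or trypsinized replicate 2 or 3 (-0.27 to -0.32), and Col1a1 over both steps not without untrypsinized replicate 1 or 3 or mock sorted replicate 2 or 3 (-0.25 to -0.31).

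**Figure D2:**
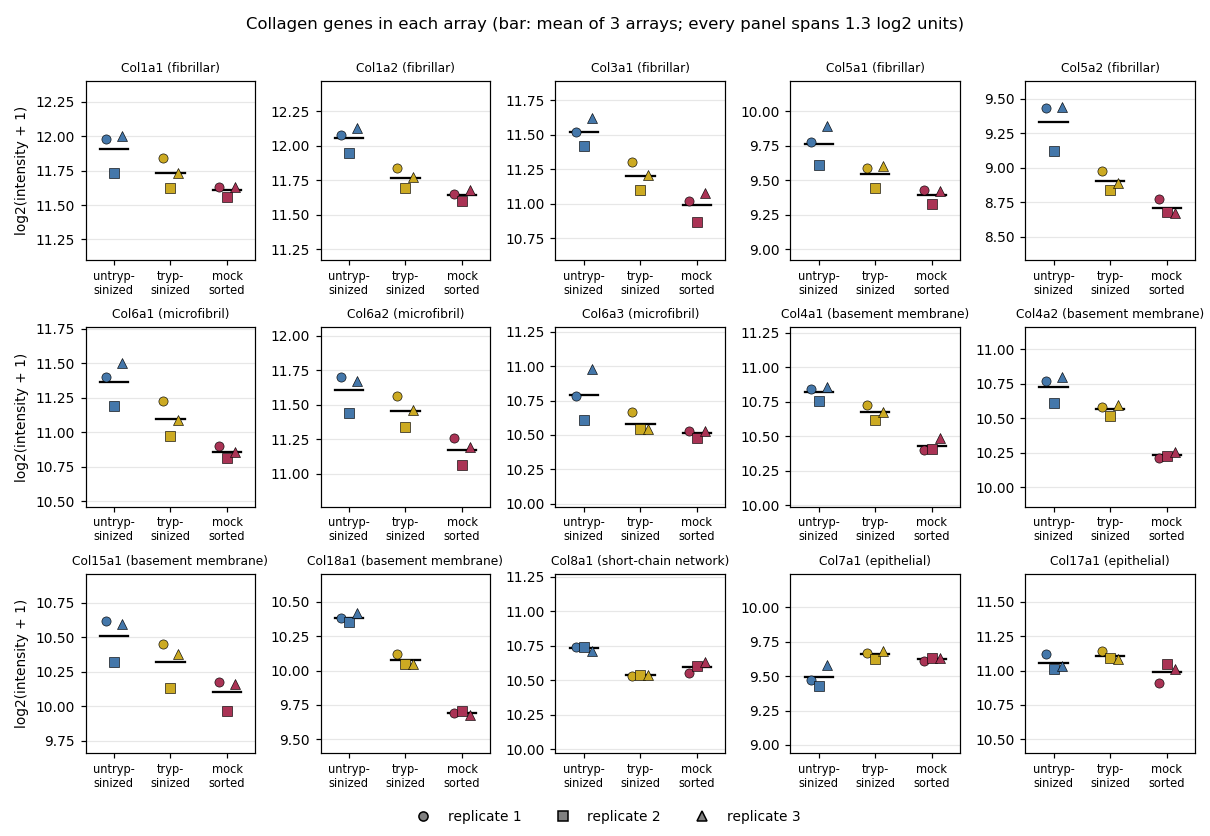
Level of 15 collagen genes in each array (y axis, log2(intensity + 1), each panel spanning 1.3 units; colours mark groups, shapes mark replicate numbers, bars are means of 3 arrays). Col18a1 steps down from 10.38 to 10.07 to 9.69 with little spread, and Col17a1 stays between 10.91 and 11.14. Col1a2 changes by -0.29 with trypsin and -0.12 with the mock sort, and Col4a2 by -0.16 and -0.34.

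Collagen VI forms beaded microfibrils in the matrix around most connective tissue cells, from Col6a1, Col6a2 and 1 of several longer chains. Col6a1 was at 11.40, 11.19 and 11.50 in untrypsinized, 11.23, 10.97 and 11.09 in trypsinized and 10.90, 10.81 and 10.86 in mock sorted arrays. Col6a2 was at 11.70, 11.44 and 11.67, then at 11.56, 11.34 and 11.46, then at 11.26, 11.06 and 11.19. For both genes the trypsinized arrays overlapped the untrypsinized arrays, and the mock sorted arrays lay below all the others. Over both steps Col6a1 fell by 0.51 (SE 0.09, adjusted p = 0.00312) and Col6a2 by 0.44 (SE 0.09, adjusted p = 0.00543). Neither passed in a single step in the main fit. With trypsin both passed with a common median (-0.40 and -0.29) and with the replicate number as a block over 9 arrays. Col6a3, the long chain found in most tissues, was at 10.78, 10.61 and 10.98, then at 10.67, 10.54 and 10.54, then at 10.53, 10.48 and 10.53. It fell by 0.28 (SE 0.09, adjusted p = 0.0356) over both steps, a result that failed in 10 of 22 alternatives, 7 of which left out 1 array (any but untrypsinized replicate 2 and trypsinized replicate 1); without untrypsinized replicate 3 it was -0.18. Col6a4, Col6a5 and Col6a6, the alternative long chains, passed in no comparison, with differences of 0.11 to 0.15 over both steps. The values of Col6a5 and Col6a6 depend on the row used. With the mean of the rows of a gene, the class median over both steps was -0.24 instead of -0.09, and 15 collagen genes fell (17.9% of all genes).

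Among basement membrane collagens, the main type IV network and the endostatin-type collagens fell, and the other type IV chains did not. The class of 8 genes had a median of -0.04 with trypsin, -0.14 with the mock sort and -0.19 over both. Col4a1 and Col4a2 form the network found in nearly all basement membranes, those of vessels included. Col4a1 was at 10.84, 10.76 and 10.86 in untrypsinized, 10.73, 10.62 and 10.68 in trypsinized and 10.40, 10.41 and 10.49 in mock sorted arrays. Col4a2 was at 10.77, 10.61 and 10.80, then at 10.58, 10.52 and 10.60, then at 10.21, 10.23 and 10.26. The 3 groups of each gene did not overlap, and on this scale the larger step was the second. With trypsin the changes of -0.14 and -0.16 did not pass (adjusted p = 0.0574 and 0.0653). With a common median they were -0.27 and -0.29 and both passed, beside -0.26 and -0.35 with the mock sort. With the mock sort Col4a1 fell by 0.25 (SE 0.05, adjusted p = 0.0192) and Col4a2 by 0.34 (SE 0.05, adjusted p = 0.00991), and over both steps they fell by 0.39 and 0.49. The Col4a1 change with the mock sort no longer passed without trypsinized replicate 1 or 3 or mock sorted replicate 1 or 2 (-0.22 to -0.24), nor with the replicate number as a block in a fit of the 6 arrays compared (-0.25, adjusted p = 0.0755).

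The 2 genes are neighbours that are read in opposite directions from starts 21 bases apart in the RefSeq table. They were 1 of 8 pairs of collagen genes that follow each other along a chromosome with no other coding gene between them. Col3a1 and Col5a2 were another, at -0.53 and -0.62 over both steps, and Col6a2 and Col6a1 one more, at -0.44 and -0.51. In each of these 3 pairs both genes fell. Col4a4 and Col4a3 (0.10 and 0.21), Col4a6 and Col4a5 (0.16 and 0.00), Col6a6 and Col6a5 (0.11 and 0.15), Col6a5 and Col6a4 (0.15 and 0.13) and Col9a1 and Col19a1 (-0.10 and 0.09) held no member that fell. Col4a6 and Col4a5, whose starts lie 1343 bases apart on opposite strands, differed in their change with trypsin, 0.18 and 0.05, and the difference between them was not tested.

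Col18a1, whose C-terminal fragment is endostatin, had the smallest adjusted p of the 44 genes over both steps. It was at 10.38, 10.35 and 10.42 in untrypsinized, 10.12, 10.05 and 10.05 in trypsinized and 9.69, 9.71 and 9.68 in mock sorted arrays. Its 3 groups were separated by gaps wider than the spread within any of them. It fell by 0.31 (SE 0.04, adjusted p = 0.00128) with trypsin, by 0.38 (SE 0.04, adjusted p = 0.000614) with the mock sort and by 0.69 (SE 0.04, adjusted p = 5.52e-06) over both steps, and it passed in each of 22 alternatives, from -0.66 to -0.84 over both steps. Col15a1, the related chain of vessel and muscle basement membranes, was at 10.62, 10.32 and 10.60, then at 10.45, 10.13 and 10.38, then at 10.18, 9.97 and 10.16. Its groups overlapped in both single steps, and the fall of 0.41 (SE 0.11, adjusted p = 0.0198) over both steps no longer passed without untrypsinized replicate 1 or 3 or mock sorted replicate 2 (-0.34 to -0.37).

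Of the chains of the more restricted type IV networks, Col4a3 and Col4a6 rose in 1 comparison each, and Col4a4 and Col4a5 passed in none. Col4a3 was at 7.95, 8.14 and 8.19 in untrypsinized and at 8.26, 8.36 and 8.31 in mock sorted arrays, close to the dim level, and rose by 0.21 (SE 0.07, adjusted p = 0.0315). Col4a6 was at 8.84, 8.94 and 8.88 in untrypsinized and at 9.09, 9.11 and 8.98 in trypsinized arrays, and rose by 0.18 (SE 0.05, adjusted p = 0.047) with trypsin. Neither passed after quantile normalization (0.04 and 0.08) or with a common median (0.07 and 0.04), nor with only the 2 groups compared in the fit, nor without untrypsinized replicate 1. Col4a6 also failed without untrypsinized replicate 2 or 3, trypsinized replicate 1 or 2 or mock sorted replicate 1 or 3 (0.15 to 0.20), and Col4a3 without mock sorted replicate 2 or 3 (0.19 and 0.22).

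The epithelial collagens, Col7a1 and Col17a1, were not among the genes that fell, and their median was 0.11, -0.07 and 0.03 in the same order (-0.03, -0.09 and -0.12 with a common median). Col17a1 was at 11.12, 11.01 and 11.03 in untrypsinized, 11.14, 11.09 and 11.08 in trypsinized and 10.91, 11.05 and 11.01 in mock sorted arrays. The untrypsinized values overlapped both other groups, and the differences were 0.05 with trypsin (95% interval -0.06 to 0.16), -0.11 with the mock sort (-0.22 to 0) and -0.06 over both (-0.17 to 0.05). The mock sorted arrays all lay below the trypsinized arrays. None of these differences passed, but with a common median the last was -0.21 and passed. Col7a1 was at 9.47, 9.43 and 9.58, then at 9.67, 9.62 and 9.68, then at 9.61, 9.63 and 9.63. Its untrypsinized arrays lay below all the others. The rise of 0.16 (SE 0.05, adjusted p = 0.036) with trypsin failed in 11 of 22 alternatives, 7 of which left out 1 array (any but untrypsinized replicate 3 and mock sorted replicate 1), and was 0.10 after quantile normalization and 0.03 with a common median.

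The FACIT collagens, which attach to fibril surfaces, held 9 members, and 2 of them passed over both steps. Col14a1 was at 11.80, 11.71 and 11.84 in untrypsinized, 11.71, 11.79 and 11.73 in trypsinized and 11.58, 11.56 and 11.56 in mock sorted arrays. The first 2 groups overlapped and the mock sorted arrays lay below both, and the fall over both steps was 0.22 (SE 0.04, adjusted p = 0.00593), with -0.17 in the mock sort, which did not pass (adjusted p = 0.0669). Col9a2, a chain of the cartilage collagen IX, was at 9.99, 9.94 and 10.00 in untrypsinized, 10.16, 10.17 and 10.29 in trypsinized and 10.39, 10.11 and 10.27 in mock sorted arrays. It rose by 0.28 (SE 0.07, adjusted p = 0.0165) over both steps, and no longer passed without untrypsinized replicate 2 or mock sorted replicate 3 (0.26 and 0.28) or with a common median (0.13). The other 7, Col9a1, Col9a3, Col12a1, Col16a1, Col19a1, Col20a1 and Col22a1, ranged from -0.10 to 0.20 over both steps, and none passed.

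Col8a1, a short chain that forms lattices in vessel walls and membranes, fell with trypsin and was not lower again after the mock sort. It was at 10.74, 10.74 and 10.71 in untrypsinized, 10.53, 10.54 and 10.54 in trypsinized and 10.55, 10.60 and 10.63 in mock sorted arrays. The mock sorted arrays lay above the trypsinized arrays and below the untrypsinized arrays. The fall was 0.19 (SE 0.03, adjusted p = 0.00632) with trypsin and 0.13 (SE 0.03, adjusted p = 0.0146) over both steps, and the difference of 0.05 between mock sorted and trypsinized cells did not pass. The fall over both steps did not pass after quantile normalization (-0.11). Col8a2 and Col10a1, of the same class, and Col13a1, Col23a1, Col25a1, Col26a1 and Col28a1, most of them membrane-bound or minor collagens, passed in no comparison; over both steps they ranged from -0.03 to 0.27. Col10a1, Col19a1, Col24a1 and Col25a1 were the 4 genes dim in all 3 groups.

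Whether 2 members changed by unlike amounts in a comparison was tested on differences between the 2 genes within each array. This was done for 6 pairs in 3 comparisons that were picked after the values had been seen. None of these tests compared 1 step with the other. The level of Col1a2 relative to Col17a1 changed by -0.34 with trypsin and by -0.01 with the mock sort, where the groups overlapped (exact p = 0.9). That of Col4a2 relative to Col1a2 changed by 0.13 with trypsin, without overlap between the groups, and by -0.22 with the mock sort, again without overlap. Col18a1 relative to Col17a1 changed by -0.36, then by -0.27, and by -0.63 over both steps, and Col4a2 relative to Col17a1 by -0.21, -0.22 and -0.43 in the same order. Col4a1 relative to Col1a1 changed by 0.03 with trypsin (exact p = 0.6), -0.13 with the mock sort and -0.09 over both (exact p = 0.3), and Col18a1 relative to Col1a1 by -0.14 with trypsin (exact p = 0.3), -0.26 and -0.39. The groups overlapped in those 3 comparisons with a p of 0.3 or 0.6. Each change without overlap had an exact two-sided permutation p of 0.1, the smallest that 3 arrays against 3 allow, and 0.13 after adjustment over the 18 comparisons. The design cannot bring such a test below 0.1, so these tests cannot decide whether the members of a pair changed unlike each other.

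Genes that make, trim and bind collagens were counted in the same fit, in which 18% of all genes fell and 21% rose over both steps. Of 18 genes of collagen biosynthesis, 13 fell and 0 rose over both steps, with a median of -0.27. Colgalt2, a collagen galactosyltransferase, and Crtap, a subunit of the prolyl 3-hydroxylase complex, were called lower at -0.86 (SE 0.05) and -0.61 (SE 0.04). P3h2, a prolyl 3-hydroxylase, and Plod1, a lysyl hydroxylase, fell by 0.53 and 0.35, and P3h1, Crtap's partner, by 0.44. The collagen chaperone Serpinh1 differed by -0.16 and did not pass (adjusted p = 0.0555). Of 11 genes of processing and crosslinking, 5 fell and 2 rose, Adamts3 and Tll2. Neither passed with a common median, and Tll2 was dim in all 3 groups and at -0.01 after quantile normalization. Lox, the lysyl oxidase that crosslinks collagen, went from a mean of 10.47 to 9.97 to 9.38 and was called lower at -1.09 (SE 0.11). Pcolce2, an enhancer of procollagen C-proteinase, was called at -0.78 (SE 0.10), and Tll1, a tolloid-like proteinase, at -1.57 (SE 0.09), with a mock sorted mean of 7.32 that was dim. Bmp1, the main procollagen C-proteinase, differed by 0.00 and did not pass; it, Serpinh1 and Ddr1 are named for their roles, after their values had been seen.

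Of 9 collagen receptors, 4 fell and 1 rose over both steps, beside the same 18% and 21% of all genes. Itga1, the integrin chain of mesenchymal and vascular cells, and Ddr2, the receptor kinase for fibrillar collagen in mesenchymal cells, were called lower at -1.30 and -0.99. Itga2, the collagen integrin chain of epithelial cells, rose by 0.36, and Ddr1, the epithelial counterpart of Ddr2, differed by 0.02 and did not pass. Of 10 partners of the type IV network, 8 fell and 1 rose. The nidogens Nid1 and Nid2, which bridge type IV collagen and laminin, were called at -0.68 and -0.90, and Lama4, a laminin chain of vessels, at -0.89. Lama5, the laminin chain typical of epithelia, was called higher at 0.61 (SE 0.04); with a common median it still rose, by 0.46, but was under 1.5-fold. Of 7 hemidesmosome partners of Col17a1, 2 fell (Cd151 at -0.22 and Lamb3 at -0.16) and 3 rose (Plec at 0.48, Dst at 0.34 and Itgb4 at 0.17, which was 0.03 with a common median and did not pass). With a common median, the medians of these 5 lists were -0.42, -0.40, -0.34, -0.51 and -0.21 in the order given.

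**Figure D3:**
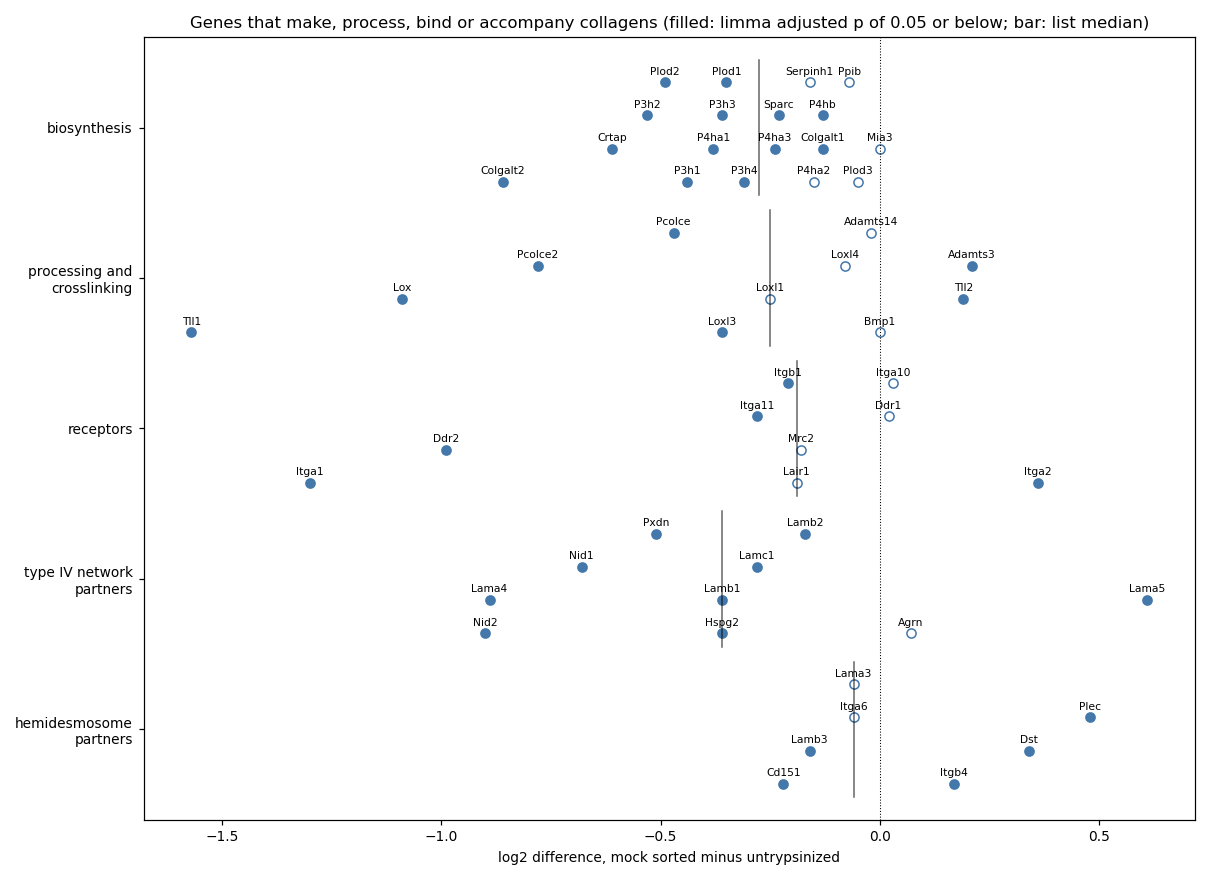
Log2 difference between mock sorted and untrypsinized cells (x axis, log2 units) for genes of 5 lists around the collagens; each point is a gene, filled where the limma adjusted p was 0.05 or below, and each bar is the list's median. Lox, Tll1, Itga1 and Ddr2 lie at -0.99 or lower, while Lama5, Plec, Itga2 and Dst lie at 0.34 or higher.

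Most markers of endothelial, mural and fibroblast cells were also lower after both steps. The mean level of 12 endothelial markers was 11.25 to 11.48 in untrypsinized, 10.85 to 10.87 in trypsinized and 9.68 to 9.95 in mock sorted arrays, and 11 of 12 fell with trypsin (median -0.51) and 12 of 12 with the mock sort (median -1.05), against 11.5% and 4.2% of all genes. All 12 were called lower with the mock sort, against 1.17% of all genes. The 10 markers of pericytes and vascular smooth muscle went from 10.29 to 10.46 through 9.95 to 9.99 to 9.28 to 9.34, with 10 of 10 lower over both steps (median -1.18). The 14 fibroblast markers, a list without collagens, went from 10.86 to 11.01 through 10.55 to 10.71 to 10.31 to 10.48; 8 of 14 fell with trypsin (median -0.30), 2 of 14 with the mock sort (median -0.23) and 12 of 14 over both (median -0.50). Dcn, a proteoglycan that binds collagen fibrils, was at 0.00 over both steps, whereas Ogn and Lox were at -0.91 and -1.09. No endothelial marker and no fibroblast marker became dim. The part of these cell types in the collagen changes was not tested.

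Other lists gave the following. The 8 luminal markers had a median of 0.08 over both steps, with 1 lower and 3 higher, and of -0.07 with a common median. The 9 basal and myoepithelial markers had a median of -0.20, with 6 lower and 0 higher, against 18% and 21% of all genes. Mylk was called lower at -0.77, and Oxtr, Cnn1 and Myh11 fell to -0.38, -0.32 and -0.31. Trp63 and Acta2 also fell, at -0.20 and -0.09. Krt5, Krt14 and Krt17 were at -0.09, -0.05 and -0.01, which did not pass. Which cells carried the changes of these markers was not tested. The 5 Schwann cell markers with a measured row had a median of -1.61, with 4 lower and 1 higher: Cdh19 was at -2.91 and dim in trypsinized and mock sorted cells, and Sox10 was at 0.19, and the 7 adipocyte markers had a median of -0.24, with Car3 at -2.19 and Adipoq dim in all 3 groups.

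**Figure D4:**
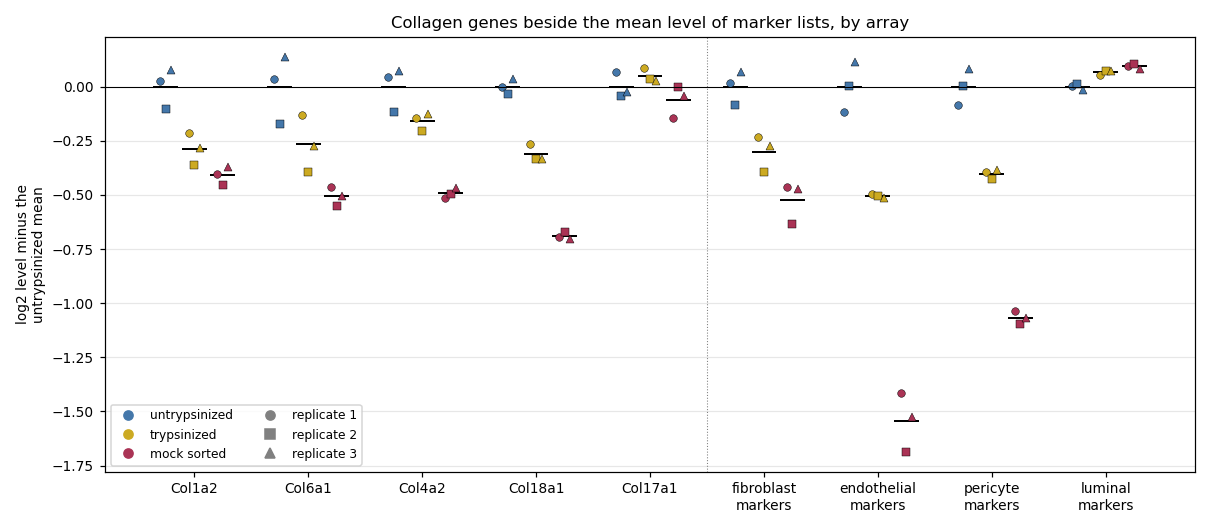
Level in each array minus the mean of the untrypsinized arrays (y axis, log2 units) for 5 collagen genes and for the mean of 4 marker lists; colours mark groups, shapes replicate numbers and bars group means. Endothelial and pericyte markers drop further than any of the 5 collagen genes in mock sorted arrays, and Col17a1 and the luminal list stay near 0.

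Several collagen genes also shared an order among replicate numbers. Replicate 2 was the lowest array in each of the 3 groups for 9 of 44 collagen genes (20.5%), namely Col1a1, Col1a2, Col3a1, Col5a1, Col6a1, Col6a2, Col6a3, Col12a1 and Col15a1, and for 738 of all genes (3.7%). The same held for 9 of 14 fibroblast markers (64.3%), Pdgfra, Lum and Dpt among them, and for 0 of 12 endothelial markers. Replicate 1 was the lowest in each group for 9 other collagen genes (20.5%, against 10.6% of all genes) and replicate 3 for none (2.22%). Col4a1, Col4a2 and Col18a1 were in neither set.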

How the data were processed

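The deposited table holds intensities on a linear scale, per the file headers and values, in 35512 rows for 9 arrays; for the authors' background correction, probe summary and scaling no source used here gives the method, and limma is named per the submitters' processing notes. Rows were named through the platform annotation, which can be old: 21789 had 1 symbol, 1621 several and 12102 were not listed. Symbols of 21698 rows were updated with RefSeq (GRCm38.p6). The row with the highest mean stood for each of 19938 genes. Values were tested as log2(intensity + 1) with limma 3.58.1 in R 4.3.3: 1 mean per group, 9 arrays, Benjamini-Hochberg over all genes. Changes of dim genes may be understated. The script was tested on simulated data. Within-array differences used exact permutation tests (SciPy 1.17.1).

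All members are named; per-array values are given for genes called and for 14 main chains; others that passed are given too, chosen after their values were seen. Genes of related lists are named where called and by smallest p. The collagen genes and gene lists were chosen with earlier results of these data known. Same-numbered trypsinized and mock sorted arrays deviated together (correlations over all genes 0.53, 0.29 and 0.29), a pairing seen in the values and not given by the labels. The main fit and the permutation tests did not use this pairing. A replicate block was fitted only among the alternatives. Alternatives changed scaling, pseudocount, filters, the fit and the arrays used.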

Additional observations from a re-analysis of the deposited data

How the results depend on the processing

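No collagen change that passed reversed its direction in the alternatives run; of the related genes that passed over both steps, Tll2 did, from 0.19 to -0.01 after quantile normalization. Counts below are collagen genes of 44. They are of 20 with genes at or above the median gene and of 40 with genes above the dim level. Called lower in mock sorted against untrypsinized cells were 2, and 14 with no minimum fold. With a common median 6 were called lower (Col3a1 at -0.68, Col4a2 at -0.64, Col6a1 at -0.66 and Col6a2 at -0.59 were added). The called count was 1 with a pseudocount of 50 or with array weights. It was also 1 with genes at or above the median gene, a filter that left out Col5a2. With 1 array left out it was 1 to 3 (1 without untrypsinized replicate 1 or 3, which ended the call of Col5a2). With no minimum fold the called counts of 0 became 5 lower and 2 higher (trypsinized against untrypsinized), 3 lower (mock sorted against trypsinized) and 2 higher (mock sorted against untrypsinized).

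Counts with no minimum fold were recomputed in alternatives chosen after seeing the data. Percentages in brackets are the shares of all genes kept in the same fit. In trypsinized against untrypsinized cells, the 5 lower became 14 with a common median (28.4%). They became 9 with a trended robust prior (14%) or with genes above the dim level (19%). With genes at or above the median gene they became 8 (22.9%). With 1 array left out they were 4 to 10 (7.09% to 10.9%), and 10 without untrypsinized replicate 2 (8.83%). The 2 higher became 0 after quantile normalization (8.03%) or with a common median (3.74%). They became 5 with a pseudocount of 50 (14.6%), a trended robust prior (15.8%) or genes above the dim level (20.4%). With the 2 groups compared there was 1 (10.7%). With 1 array left out they were 0 to 3 (7.82% to 13.6%). They were 0 without untrypsinized replicate 1 or 2, trypsinized replicate 1 or 2 or mock sorted replicate 3. In mock sorted against trypsinized cells, the 3 lower became 5 with genes at or above the median gene (10%). With 1 array left out they were 2 to 4 (2.59% to 3.92%). In mock sorted against untrypsinized cells, the 14 lower ranged from 11 to 17, and the 2 higher became 4 with array weights or genes above the dim level, 1 after quantile normalization or with the 2 groups compared, and 0 with a common median, and were 0 to 6 with 1 array left out (0 without mock sorted replicate 3, 1 without mock sorted replicate 2 or untrypsinized replicate 1 or 2, 4 without mock sorted replicate 1 and 6 without untrypsinized replicate 3).

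In mock sorted against trypsinized cells the replicate block gave 5 lower over 9 arrays (3.89% of all genes) and 3 in the 6 arrays compared (3.53%). Untrypsinized arrays were not taken as paired with the others, since same-number correlations over all genes went down to -0.04 (trypsinized) and 0.06 (mock sorted); over the 44 collagen genes alone they were 0.51, 0.66 and 0.16, and 0.66, 0.66 and -0.19. There the block over 9 arrays gave 10 lower (10.9% of all genes) and 5 higher (14.6%) with trypsin and 4 higher (22.4%) over both steps. A block in fits of the 6 arrays compared gave 2 lower (3.41%) and 1 higher (3.08%) with trypsin, where Col1a2 (adjusted p = 0.0504) and Col8a1 (0.0759) did not pass. The F test count of 12 was 10 to 18. The causes were not tested. Dim genes limit detection: 4 collagen genes were never above the dim level.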

Other observations

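Both collagen genes with more than 1 row had a second, dimmer row that the main counts do not use. The second Col6a5 row was at 7.68, 7.55 and 7.86 in untrypsinized, 7.15, 7.30 and 7.33 in trypsinized and 7.25, 7.07 and 7.13 in mock sorted arrays, all below the dim level of 8.14, while the row that stood for the gene was at 8.97 to 9.26, 9.24 to 9.41 and 9.04 to 9.43. The second row was lower in trypsinized and mock sorted arrays than in untrypsinized arrays without overlap, whereas the row that stood for the gene overlapped between untrypsinized and mock sorted arrays; the difference between the rows was not tested. The second Col6a6 row lay between 7.95 and 8.19 in all 9 arrays.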
